A study of Mus musculus with 6 samples.

Results

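The axon guidance ligands and receptors described here are the semaphorins, plexins, Slits, Robos, netrins and Unc5 receptors of 4T1 mouse mammary carcinoma cells. The members were all protein-coding genes whose symbol names 1 of these 6 families, whatever their level, and 43 of the 53465 genes in the count file met that rule. Ntn3 is also named by the rule but was not analysed here. Of the 43 genes, 26 had enough counts to be tested and 17 did not.

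4T1 is a metastatic mammary tumour line of Balb/c mice. The parental cells (P) were compared with an axitinib-resistant line (AxR). The methods derive AxR from metastatic lesions, taken from lung or lymph node, of Balb/c mice that were implanted with 4T1 cells and treated with axitinib, which blocks VEGF receptors, before and after the primary tumour was removed. The dose in mice was 100 mg/kg/day, and in culture AxR was kept at 0.5 μM for more than 2 months. AxR therefore differs from P in its passage through the host as well as in the drug, and the study describes P as vehicle-treated. The treatment labels name axitinib for AxR alone, whereas the growth labels name it for all 6 samples, and whether P was cultured with it cannot be told from the sources used here. Nothing says whether the 3 libraries of a line came from separate cultures, and p-values then measure only the spread between these libraries.

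Semaphorins are secreted or membrane-bound ligands whose main receptors are the plexins, and most secreted semaphorins of class 3 bind through the co-receptors neuropilin 1 and neuropilin 2, which also bind VEGF. Slits are secreted ligands of the Robo receptors, and netrin 1 is a secreted, laminin-like ligand of Dcc, neogenin and the Unc5 receptors. These families were described first in growing axons, and in the mammary gland netrin 1 with neogenin and Slits with Robo1 are known to hold the layers of the duct together.

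Of the 26 guidance genes tested, 9 were higher and 13 were lower in AxR at an adjusted p under 0.05 in edgeR's quasi-likelihood test, and 4 were not called. The members called in either direction were 84.6%, beside 63.5% of all 13550 genes tested. The 9 higher members were 34.6% of those tested, close to the 32.8% of all genes that were higher, and the 13 lower members were 50% beside 30.8% of all genes. At a log2 change of at least 1, 2 members were higher and 9 lower (34.6%), where 7.99% of all genes were higher and 4.72% lower by that much. The median log2 fold change was -0.11 over the 26 members and 0.0058 over all genes.

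Part of these counts follows from the filter on low counts. Ntn4, Sema3a, Sema3c, Sema6d and Slit2 reached the filter's level in all libraries of P alone, and Robo1 in all libraries of AxR alone. These 6 genes could thus be tested through 1 line, which favours a difference, and their calls say nothing about the families. In the other line Ntn4 still had 8, 12 and 11 counts, and Robo1 13, 10 and 9. For genes at the filter's level in both lines, no share over all genes was computed, so the next counts have no matching background. Among the 20 members that reached that level in both lines, 8 were higher, 8 were lower and 4 were not called. By at least 1 on the log2 scale, 1 was higher and 4 were lower. The median log2 fold change of these 20 was 0.21, so that the sign of the median over all 26 rests on the 6 genes that passed through 1 line. The libraries of the lines did not overlap for 23 of the 26 members (88.5%), beside 68.3% of all genes. With 3 libraries against 3, an exact two-sided permutation test of a single gene cannot go below p = 0.1, which each of these 23 genes reached.

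**Figure D1:**
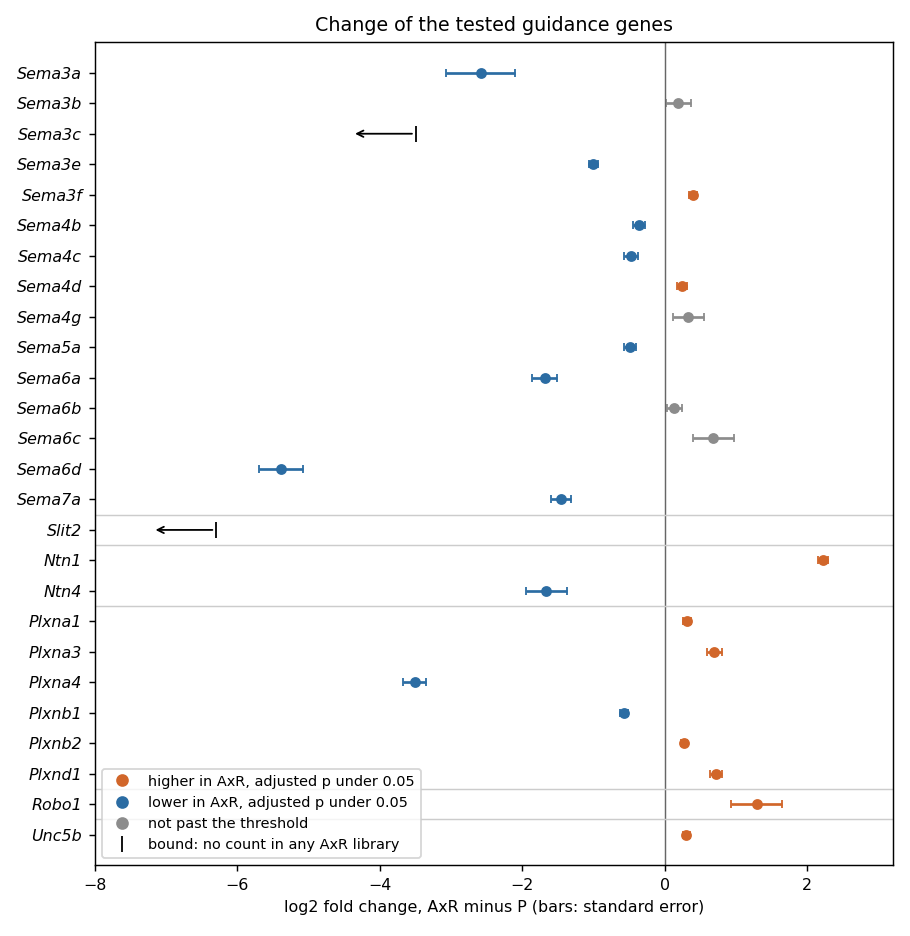
Log2 fold change of AxR over P for each tested guidance gene, in family order, with bars of 1 standard error, and with a bar and arrow at the bound for Slit2 and Sema3c, which had no count in AxR. Ntn1 lies farthest to the right at 2.22, and Slit2, Sema6d at -5.38 and Plxna4 at -3.51 lie far to the left.

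The libraries held 15495260 to 17294525 estimated counts, and the first principal component, with 84.3% of the variance, separated the lines. In these bulk samples, fewer cells of a type and less RNA per cell cannot be told apart. The summed level of 8 epithelial markers was 1550 to 1714 CPM in P and 2323 to 2413 CPM in AxR, with 5 of the 7 tested higher and 2 lower and Krt5 at 0. Endothelial cells and neurons use many guidance genes themselves. The summed level of 8 endothelial markers was 5.96 to 6.87 CPM in P and 3.44 to 4.13 CPM in AxR, with 1 marker tested and lower and with Kdr, Emcn and Cldn5 at 0 in every library. The 8 neuronal and glial markers summed to 50.6 to 52.6 CPM and 73.4 to 76.9 CPM, nearly all from the myelin gene Mbp, with Snap25 at 0. The 8 fibroblast markers summed to 8.67 to 11.5 CPM in P and 258 to 285 CPM in AxR, almost wholly from Postn, with Col3a1, Lum and Thy1 at 0. The 8 leukocyte markers summed to 6.14 to 8.08 CPM and 16.3 to 17.0 CPM with 2 tested and both higher and with Tyrobp, Fcer1g and Cd3e among those at 0, and the 7 lung epithelial markers summed to at most 0.425 CPM.

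Netrin 1 had the largest rise of the tested members. Ntn1 (ENSMUSG00000020902.12, chromosome 11 from 68209364 to 68400823, minus strand, GRCm38) was at 27.1, 25.5 and 28.6 CPM in the P libraries and at 119.9, 137 and 119.9 CPM in the AxR libraries. Every AxR library was more than 4 times as high as any P library, and the lines did not come near each other. The mean rose from 27.0 ± 1.55 to 126 ± 10.1 CPM (SD, n = 3), a log2 fold change of 2.22 (SE 0.071, edgeR adjusted p = 2.04e-12). The rise was not shared by its neighbours, since of the 23 other tested genes within 1 Mb of Ntn1 4 were higher and 10 lower, with a median log2 fold change of -0.06.

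Netrin 4, a laminin-binding netrin of basement membranes, went the other way at a far lower level. Ntn4 stood at 1.70, 2.02 and 2.35 CPM in P and at 0.508, 0.765 and 0.626 CPM in AxR, and fell by 1.66 on the log2 scale (SE 0.292, edgeR adjusted p = 0.000142). All P libraries lay above all AxR libraries. Ntn4 reached the filter's level in P alone, which favours a difference. Ntn5 had at most 3 counts in any library and was not tested.

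Among the netrin receptors, Unc5b was the only Unc5 gene with appreciable counts. Its level was 179, 181 and 176 CPM in P and 210.0, 225 and 224 CPM in AxR, a log2 fold change of 0.30 (SE 0.048, edgeR adjusted p = 6.82e-05), and the lines did not overlap. Unc5c had no count in any library and Unc5a at most 3, while Unc5d had 3, 2 and 9 counts in P and 0, 1 and 1 in AxR. Dcc, the classical attractive receptor of netrin 1, had at most 2 counts per library. Neogenin, encoded by Neo1, was plentiful, with 290.2, 297 and 300.4 CPM in P and 222, 214 and 220.4 CPM in AxR, and fell by 0.43 on the log2 scale (SE 0.045, edgeR adjusted p = 7.28e-07). Thus the ligand and Unc5b were higher, and neogenin lower, in every AxR library than in any P library.

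Per kilobase of exon, which allows levels to be compared between genes, Ntn1 moved from 4.31 ± 0.247 to 20.03 ± 1.61 CPM per kb (SD, n = 3), and Unc5b from 28.6 ± 0.387 to 35.1 ± 1.33 CPM per kb. In P, the mean of Ntn1 lay by this measure between those of Sema4c at 4.66 ± 0.316 and Sema7a at 3.05 ± 0.375 CPM per kb, and its libraries overlapped those of Sema4c. In AxR it ranked below Plxnb2 and Unc5b only, and above Sema3f at 17.5 ± 0.611 CPM per kb, with no overlap of their libraries.

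**Figure D2:**
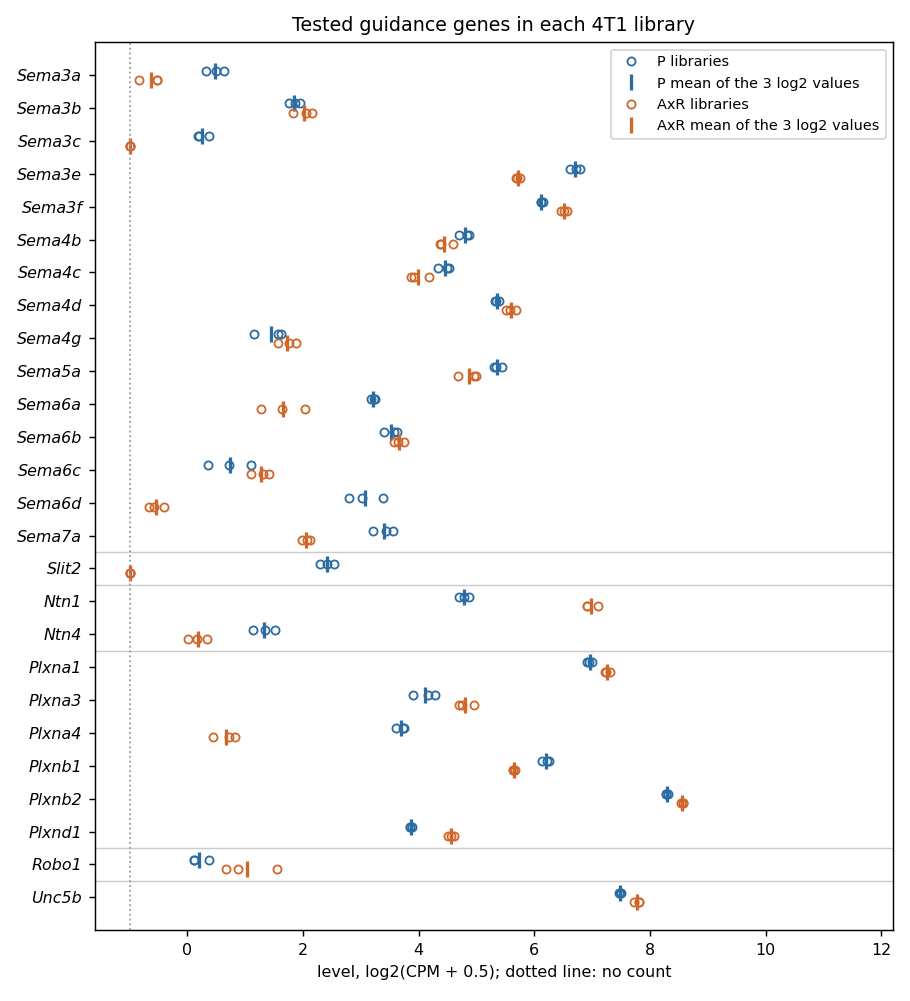
Levels of the tested guidance genes as log2(CPM + 0.5), with a circle for each of the 3 libraries of P (blue) and AxR (orange), an upright bar at the mean of the 3 log2 values, and a dotted line at no count. Plxnb2 and Unc5b sit highest in both lines, and Slit2 and Sema3c lie on the dotted line in AxR.

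Slit2 was the only Slit gene detected above a few counts, and it was found in P alone. It was thus tested through that line, which favours a difference. Slit2 (ENSMUSG00000031558.15, chromosome 5 from 47983138 to 48307733, plus strand) had 87, 76 and 74 counts in the P libraries, or 5.29, 4.39 and 4.82 CPM, and 0 counts in each AxR library. A floor of 3 counts over the 3 AxR libraries is 0.0612 CPM, so that Slit2 was at least 78.8-fold lower in AxR than its P mean of 4.83 ± 0.450 CPM (SD, n = 3, edgeR adjusted p = 6.61e-09). Slit3 had at most 3 counts in any library and Slit1 at most 4.

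The Slit receptors were scarce, and Robo1 reached the filter's level in AxR alone, which favours a difference. Robo1 had 13, 10 and 9 counts in P and 21, 38 and 19 in AxR, which is 0.651 ± 0.120 CPM and 1.61 ± 0.713 CPM (SD, n = 3). The lowest AxR library was above the highest P library, but the AxR libraries were themselves widely spread. The log2 fold change was 1.29 (SE 0.361, edgeR adjusted p = 0.00582), and without AxR replicate 2 it was 0.88 with an adjusted p of 0.0525, so that this library decides the call. Robo4 had no count, and Robo2 and Robo3 at most 3 in any library. No Slit and Robo pair therefore reached 1 CPM for both partners in either line: in P the ligand did and Robo1 did not, and in AxR Robo1 did and no Slit did.

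Of the secreted class 3 semaphorins, Sema3e and Sema3f were the most abundant, and they moved in opposite directions. Sema3e (ENSMUSG00000063531.7, chromosome 5 from 14025276 to 14256689, plus strand), the ligand of plexin D1 that needs no neuropilin, was at 105, 97.5 and 110.4 CPM in P and at 51.1, 53.5 and 51.4 CPM in AxR. It fell by 1.00 on the log2 scale (SE 0.059, edgeR adjusted p = 1.52e-09), and the lowest P library was well above the highest AxR library. Sema3f, a ligand of neuropilin 2 and class A plexins, was at 70.1, 68.8 and 68.7 CPM in P and at 91.3, 94.1 and 87.7 CPM in AxR, higher by 0.40 on the log2 scale (SE 0.053, edgeR adjusted p = 9.98e-06). With these opposite changes the 2 ligands moved apart. Per kilobase, Sema3f and Sema3e stood in P at 13.3 ± 0.150 and 11.2 ± 0.697 CPM per kb (SD, n = 3), and in AxR at 17.5 ± 0.611 and 5.60 ± 0.143 CPM per kb, without overlap in either line.

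The other class 3 members were low, and Sema3a and Sema3c were tested through P alone, which favours a difference. Sema3a, the founding axon repellent that binds neuropilin 1, had 15, 13 and 16 counts in P and 3, 3 and 1 in AxR, a ratio of P to AxR of 6.27 with a counting interval of 2.80 to 16.5 (edgeR adjusted p = 0.000243). Sema3c had 13, 11 and 10 counts in P and none in AxR. Its P mean of 0.692 ± 0.0851 CPM (SD, n = 3, edgeR adjusted p = 4.02e-05) was 11.3-fold above the same floor. The counting interval of its ratio of P to AxR started at 8.71. Sema3b was at 3.34, 3.12 and 2.87 CPM in P and 3.62, 3.06 and 3.93 CPM in AxR, with overlapping lines and a log2 fold change of 0.19 (SE 0.175, edgeR adjusted p = 0.371). Sema3d had at most 3 counts and Sema3g at most 4 in any library.

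Slit2, Sema3a, Sema3c and Sema3e all lie on chromosome 5, and all were lower in AxR. Of these, only Sema3e reached the filter's level in both lines, and passing through P alone favours a lower value in AxR. Sema3d, also on chromosome 5, had 5 counts in P and 5 in AxR and was not tested. Over the 903 tested genes of that chromosome the median log2 fold change was -0.16, with 167 higher and 390 lower. The window within 10 Mb of the start of Sema3e also holds Sema3a, Sema3c and Sema3d, and was looked at after their values were seen. In it 57 other genes were tested, of which 12 were higher and 29 lower, with a median of -0.33. Slit2 lies farther along, and of its 2 tested neighbours within 1 Mb 1 was higher and 0 lower, with a median of 0.44. The part that this position plays in the calls was not tested.

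Of the 4 chromosome 5 ligands called lower in AxR, Slit2, Sema3a and Sema3c were tested through P alone, so their shared direction supports nothing further. The promoter windows of these 4 genes are shown, and they differ in base composition. Each is 300 bases of the mouse reference (RefSeq, GRCm38.p6), from 250 bases before to 50 after the annotated start, on the plus strand. Every CG pair is in capitals. CG was searched as the plain letters CG, which read the same on both strands. At least 1 CG is found in 94.6% of the 32851 promoter windows of this length, with a median of 7, and 35 of the 43 members have a window. The windows lie at chr5:47982905-47983204 for Slit2, chr5:17574566-17574865 for Sema3c, chr5:14025026-14025325 for Sema3e and chr5:13396534-13396833 for Sema3a.
Slit2: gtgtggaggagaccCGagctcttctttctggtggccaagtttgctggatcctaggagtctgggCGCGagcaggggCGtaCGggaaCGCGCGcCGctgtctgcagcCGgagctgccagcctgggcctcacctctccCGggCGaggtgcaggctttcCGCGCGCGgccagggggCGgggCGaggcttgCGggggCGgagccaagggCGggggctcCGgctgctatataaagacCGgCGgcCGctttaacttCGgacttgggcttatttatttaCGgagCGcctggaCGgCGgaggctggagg
Sema3c: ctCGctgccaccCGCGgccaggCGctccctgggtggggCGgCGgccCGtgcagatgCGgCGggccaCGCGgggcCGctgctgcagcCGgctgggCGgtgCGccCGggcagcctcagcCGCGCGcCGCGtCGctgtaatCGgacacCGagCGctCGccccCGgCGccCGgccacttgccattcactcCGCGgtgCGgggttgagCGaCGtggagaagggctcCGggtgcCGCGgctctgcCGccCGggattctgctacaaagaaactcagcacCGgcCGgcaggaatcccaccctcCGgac
Sema3e: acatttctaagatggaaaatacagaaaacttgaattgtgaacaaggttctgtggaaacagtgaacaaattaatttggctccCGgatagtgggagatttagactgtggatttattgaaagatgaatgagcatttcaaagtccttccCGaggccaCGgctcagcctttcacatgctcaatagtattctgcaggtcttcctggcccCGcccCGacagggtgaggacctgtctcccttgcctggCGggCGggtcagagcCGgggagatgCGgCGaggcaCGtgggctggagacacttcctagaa
Sema3a: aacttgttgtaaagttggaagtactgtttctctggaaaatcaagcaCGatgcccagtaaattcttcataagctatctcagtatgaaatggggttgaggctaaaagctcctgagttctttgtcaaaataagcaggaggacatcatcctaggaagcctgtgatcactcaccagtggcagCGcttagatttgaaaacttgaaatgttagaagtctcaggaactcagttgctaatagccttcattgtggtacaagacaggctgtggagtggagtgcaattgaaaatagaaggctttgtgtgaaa
The Slit2 window holds 30 CG pairs at 68.0% GC, and 11.7% of all windows hold at least as many. The Sema3c window holds 42 at 75.7% GC, a number reached by 3.03% of windows. The Sema3e window holds 11 at 50.7% GC and the Sema3a window 2 at 41.3% GC, numbers reached by 41.4% and 85.9% of windows. Among other members with CG-rich windows, Unc5b, higher in AxR, and Plxnb1, lower in AxR, had ample RNA and 36 CG pairs each. Slit3 with 41 and Unc5a with 37 CG pairs had at most 1 count in any library. The relation of CG pairs to RNA level was not tested. The number of CG pairs is a feature of the reference, and methylation was not measured here. The RefSeq start of Sema3a lies inside the gene as the annotation used for the counts draws it, and that gene has other starts.

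Among the membrane-bound semaphorins, Sema6d changed most. Sema6d (ENSMUSG00000027200.17, chromosome 2 from 124089969 to 124667770, plus strand), a transmembrane ligand of plexin A1, was at 7.60, 6.47 and 9.98 CPM in P and at 0.254, 0.128 and 0.171 CPM in AxR. All 3 AxR libraries together held 9 counts, and the 3 P libraries 390, a ratio of 43.2 with a 95% counting interval of 22.5 to 95.3. It fell by 5.38 on the log2 scale (SE 0.306, edgeR adjusted p = 9.74e-10). Sema6d reached the filter's level in P alone, which favours a difference. Its neighbours did not fall, since 4 of the 5 tested genes within 1 Mb were higher and 0 lower, with a median log2 fold change of 0.62.

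Sema6a, a class 6 ligand of plexin A4 and plexin A2, was at 8.996, 8.83 and 8.54 CPM in P and at 1.91, 2.61 and 3.58 CPM in AxR, and fell by 1.69 on the log2 scale (SE 0.176, edgeR adjusted p = 7.59e-07). The AxR libraries were more spread than the P libraries but all lay far below them. Its 9 tested neighbours within 1 Mb held 7 higher and 0 lower, with a median log2 fold change of 0.33. Sema7a, a lipid-anchored ligand of β1 integrins and plexin C1, was at 11.2, 10.3 and 8.74 CPM in P and at 3.68, 3.44 and 3.87 CPM in AxR, and fell by 1.46 on the log2 scale (SE 0.138, edgeR adjusted p = 2.82e-07). Among its 28 tested neighbours 18 were lower, with a median log2 fold change of -0.43.

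Sema6b and Sema6c did not pass the threshold. Sema6b was at 11.8, 9.99 and 11.4 CPM in P and 12.9, 11.4 and 12.0 CPM in AxR, with overlapping lines (log2 fold change 0.13, SE 0.104, edgeR adjusted p = 0.284). Sema6c was at 1.64, 1.15 and 0.782 CPM in P and at 2.16, 1.98 and 1.65 CPM in AxR, with a log2 fold change of 0.68 (SE 0.287) and an edgeR adjusted p of 0.0508. Its lines touched without overlapping, and the call depended on the processing. Sema5a, which carries thrombospondin repeats, was at 42.7, 40.0 and 38.9 CPM in P and 31.1, 30.5 and 25.1 CPM in AxR, and fell by 0.49 on the log2 scale (SE 0.083, edgeR adjusted p = 0.000103), while Sema5b had no count.

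The class 4 semaphorins, transmembrane ligands best known from the immune system, had 4 tested genes, all with log2 fold changes under 1 in size. Sema4d, which binds plexin B1 and can be shed from the membrane, was at 41.3, 39.4 and 40.1 CPM in P and at 51.1, 47.1 and 44.9 CPM in AxR, higher by 0.24 on the log2 scale (SE 0.067, edgeR adjusted p = 0.00499). Sema4c, a ligand of plexin B2, was at 21.9, 19.7 and 22.5 CPM in P and at 14.0, 17.7 and 14.6 CPM in AxR, and fell by 0.47 on the log2 scale (SE 0.096, edgeR adjusted p = 0.000556). Sema4b, at 27.9, 28.6 and 25.6 CPM in P and 20.1, 23.5 and 20.4 CPM in AxR, fell by 0.36 on the log2 scale (SE 0.082, edgeR adjusted p = 0.00133). The lines did not overlap for these 3 genes. Sema4g, at 2.55, 1.73 and 2.48 CPM in P and 3.18, 2.87 and 2.45 CPM in AxR, overlapped between the lines (log2 fold change 0.33, SE 0.215, edgeR adjusted p = 0.195). Sema4f was under the filter with 2, 2 and 1 counts in P and 15, 6 and 14 in AxR, a ratio of AxR to P of 7.01 with a counting interval of 2.74 to 22.9, and Sema4a had at most 3 counts.

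Taking the roles apart, the ligands and the receptors were called in different proportions. Of the 18 tested ligands 3 were higher, 11 lower and 4 not called, with a median log2 fold change of -0.48, and of the 8 tested receptors 6 were higher and 2 lower, with a median of 0.30. The background for all genes was 32.8% higher and 30.8% lower. Of the ligands, 5 were among those that passed the filter through P alone, which favours a lower value in AxR. Of the receptors, Robo1 passed through AxR alone. Over the 13 ligands that reached the filter in both lines, 3 were higher, 6 lower and 4 not called, and the median turned to 0.13, while over the 7 such receptors 5 were higher and 2 lower, with a median of 0.30. No share over all genes at the filter's level in both lines was computed to set beside these counts, and the difference between the roles was not tested.

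All 6 tested plexins were called, 4 higher and 2 lower. Of all genes tested 63.5% were called, 32.8% higher and 30.8% lower. Plxnb2, the receptor of Sema4c and Sema4d, was at 310.4, 316 and 309 CPM in P and at 378, 378 and 369.6 CPM in AxR, a log2 fold change of 0.27 (SE 0.044, edgeR adjusted p = 7.95e-05). Per kilobase it was the highest member of all in both lines, at 40.4 ± 0.509 CPM per kb in P and 48.6 ± 0.603 in AxR (SD, n = 3). Plxnb1, the other receptor of Sema4d, moved the opposite way, from 74.2, 76.2 and 70.0 CPM in P to 50.3, 49.0 and 49.2 CPM in AxR, and fell by 0.57 on the log2 scale (SE 0.057, edgeR adjusted p = 4.72e-07). The libraries of the lines did not overlap for either gene. Plxnb3 had at most 4 counts in a library.

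Among the class A plexins, which signal for class 3 semaphorins with a neuropilin and for class 6 semaphorins directly, Plxna4 fell most. Plxna4 (ENSMUSG00000029765.12, chromosome 6 from 32144268 to 32588192, minus strand) was at 12.9, 12.7 and 11.7 CPM in P and at 1.14, 1.28 and 0.853 CPM in AxR. It fell by 3.51 on the log2 scale (SE 0.163, edgeR adjusted p = 1.08e-10), an 11.4-fold difference, and each P library was far above each AxR library. Plxna1 was at 123, 128 and 119.8 CPM in P and at 159, 149 and 151 CPM in AxR, higher by 0.31 on the log2 scale (SE 0.051, edgeR adjusted p = 8.29e-05). Its exons share 970 bases with those of the antisense gene Gm26811, at 2.40 CPM in P and 2.88 CPM in AxR, and the part of shared reads in its value was not tested. Plxna3 was at 17.3, 19.1 and 14.5 CPM in P and at 25.5, 26.4 and 30.5 CPM in AxR, higher by 0.69 on the log2 scale (SE 0.101, edgeR adjusted p = 2.79e-05). Plxna2 had at most 3 counts in any library. Within this class the 2 more abundant genes were thus higher in every AxR library than in any P library, and the smallest of the 3 detected in P fell to near the filter.

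Plxnd1, the receptor of Sema3e and otherwise best known from blood vessels, was at 13.9, 13.9 and 14.3 CPM in P and at 23.9, 22.1 and 23.2 CPM in AxR, higher by 0.72 on the log2 scale (SE 0.078, edgeR adjusted p = 1.18e-06) with no overlap. Plxnc1, the plexin of Sema7a, was under the filter with 1, 1 and 3 counts in P and 15, 4 and 9 in AxR, a ratio of AxR to P of 5.61 with a counting interval of 2.14 to 18.6. Per kilobase, the plexins ranked Plxnb2, Plxna1, Plxnb1, Plxna3, Plxnd1 and Plxna4 in both lines. Plxna3 and Plxnd1 could not be put in order in P, where they lay at 2.15 ± 0.293 and 1.92 ± 0.0385 CPM per kb (SD, n = 3) with overlapping libraries, and in AxR they stood at 3.49 ± 0.336 and 3.16 ± 0.120 CPM per kb, again with overlapping libraries.

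Known ligand and receptor pairs were then read from the levels, with a pair counted as expressed in a line where the mean of both genes was at least 1 CPM. For class 3 semaphorins other than Sema3e, a neuropilin of the ligand had to reach that mean too. Sema4b, Sema4f, Ntn4 and Ntn5 were given no receptor and so no pair at any level, and Sema5a was paired with Plxnb3 only. Of 62 pairs written, 56 had values for both genes. In P 18 were expressed, made of 12 ligands and 9 receptors, and in AxR 17, made of 11 ligands and 9 receptors, and these 17 were all among the 18. At a limit of 0.5 CPM the numbers were 26 in P and 18 in AxR, with Slit2 and Robo1 then counted as a pair in P. At 1 CPM, the pair lost in AxR was Sema6d with Plxna1, through the ligand. Of the 17 pairs in AxR, 4 rest on Plxna4, whose mean there was 1.09 CPM with a library at 0.853 CPM, and at a limit of 5 CPM the numbers were 13 in P and 8 in AxR. RNA of both genes in a culture does not show that the proteins meet.

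Of the 18 pairs, 4 were higher in AxR on both sides, namely Ntn1 with Unc5b, Sema3f with Plxna1, Sema3f with Plxna3 and Sema4d with Plxnb2. Both sides were lower for Sema6a with Plxna4 and for Sema7a with Itgb1, the β1 integrin. Ligand and receptor moved in opposite directions in 6 pairs. In Sema3e with Plxnd1 and Sema4c with Plxnb2 the ligand was lower and the receptor higher, as in Sema6d with Plxna1. In Sema3f with Plxna4, Sema4d with Plxnb1 and Ntn1 with Neo1 the ligand was higher and the receptor lower. The remaining 6 pairs had a ligand that was not called, which was Sema3b, Sema4g, Sema6b or Sema6c. Genes recur among the pairs, with Plxna4 in 4 of them, so the pairs are not independent. Of all genes tested 63.5% were called, 32.8% higher and 30.8% lower, and the split of the pairs was not tested.

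**Figure D3:**
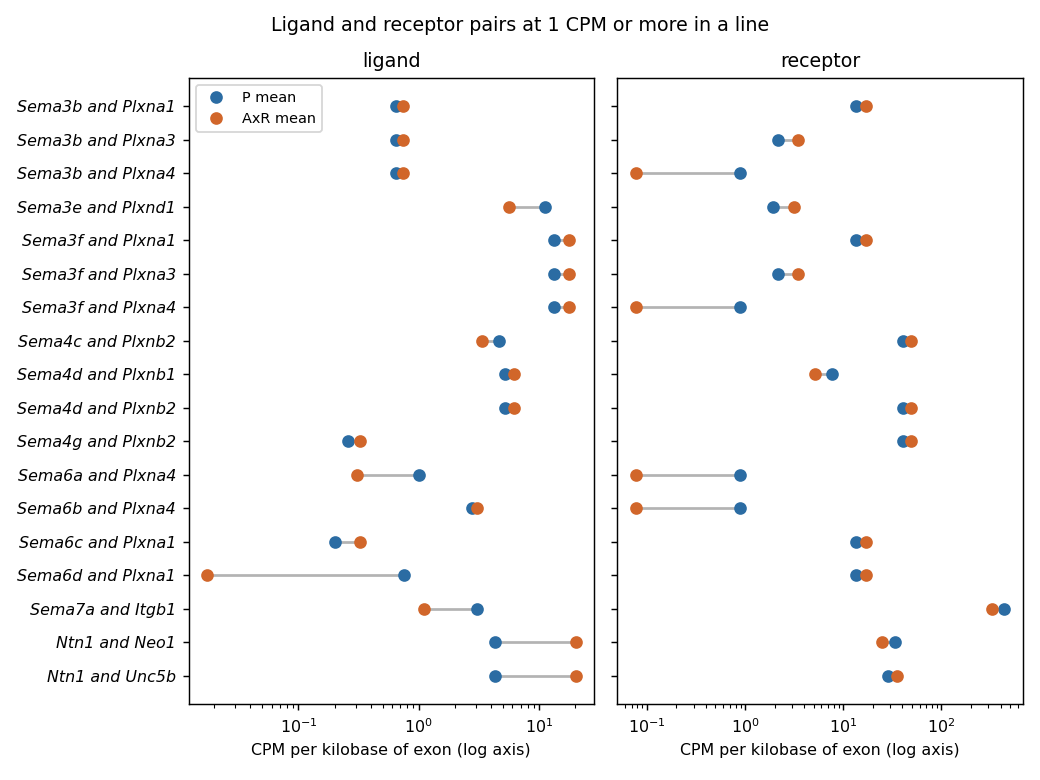
Mean levels in CPM per kb of exon on a log axis, for the ligand (left) and the receptor (right) of the 18 pairs expressed in at least 1 line, with a P point and an AxR point joined by a line and no error drawn. The ligand Ntn1 moves from 4.31 to 20.03 CPM per kb, while the ligand Sema6d and the receptor Plxna4 move down the most.

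The co-receptors and other receptors of these ligands were lower or not called. Of 10 written, 8 were tested, of which 0 were higher and 6 lower (75%), beside 32.8% higher and 30.8% lower of all genes. This list and the other partner lists were chosen with earlier results of these data known, and the shares were not tested. Nrp1, the neuropilin that carries Sema3a and VEGF signals, was at 46.6, 51.7 and 49.7 CPM in P and at 24.1, 24.7 and 19.1 CPM in AxR, and fell by 1.13 on the log2 scale (SE 0.089, edgeR adjusted p = 4.72e-08), with no overlap. Nrp2, the neuropilin of Sema3f, was the more abundant, and fell by 0.14 on the log2 scale from a mean of 681 to 617 CPM (SE 0.044, edgeR adjusted p = 0.0106). L1cam, a neural adhesion molecule that associates with Nrp1, went from a mean of 11.7 to 4.84 CPM, and fell by 1.28 on the log2 scale (SE 0.130, edgeR adjusted p = 5.71e-07). Itgb1 fell by 0.41 and Met, a partner of plexin B1, by 0.22 on the log2 scale. Erbb2 had a log2 fold change of -0.06 (edgeR adjusted p = 0.474) and Cd72 of 1.09 (edgeR adjusted p = 0.0836), and neither was called.

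Of 7 genes that act below netrin receptors, 2 were higher (28.6%) and 4 lower (57.1%), beside 32.8% and 30.8% of all genes. Dapk1, a kinase that carries the death signal of Unc5 receptors, was at 14.2, 16.1 and 13.6 CPM in P and at 0, 0.128 and 0 CPM in AxR. Only 2 counts were found in all AxR libraries, and the ratio of P to AxR was 359 with a counting interval of 99.0 to 2968 (edgeR adjusted p = 2.04e-11). Dapk1 reached the filter level in P alone, so that it too was tested through 1 line, which favours a difference. Tiam1, an exchange factor for Rac, fell by 1.23 on the log2 scale, from a mean of 48.4 to 20.6 CPM (SE 0.067, edgeR adjusted p = 5.97e-10). Ptk2 and Trio fell by 0.34 and 0.19, and Siah2 and Dock1 were higher by 0.54 and 0.36 on the log2 scale.

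Of 12 genes of Slit and Robo signalling, 10 were tested, with 3 higher (30%) and 5 lower (50%), beside 32.8% and 30.8% of all genes. The largest change was in Enah, an actin regulator that binds Robo1, which fell by 1.13 on the log2 scale (SE 0.061, edgeR adjusted p = 5.43e-10). The GTPase-activating partners of Robos moved both ways, with log2 fold changes of 0.74 for Srgap3, 0.39 for Arhgap39 and -0.55 for Srgap2. Of 20 genes that act with or below plexins, 15 were tested, with 5 higher (33.3%) and 5 lower (33.3%), close to the same shares of all genes. The exchange factors bound by class B plexins were split, at 0.30 for Arhgef11 and -0.28 for Arhgef12 on the log2 scale. Mical2 and Mical3, oxidases of actin, were higher by 0.39 and 0.44, and Gipc1, an adaptor at the tails of plexin D1 and neuropilin 1, fell by 0.59 on the log2 scale.

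The extracellular partners and the proteases moved both ways. Of 14 extracellular partners 8 were tested, with 3 higher (37.5%) and 2 lower (25%), beside 32.8% and 30.8% of all genes, among them Dag1, which binds Slits, at 0.46 and the neogenin ligands Rgma at 0.57 and Rgmb at -0.72 on the log2 scale. Of 4 proteases that process semaphorins or their receptors, Mmp14 was higher by 0.88 on the log2 scale (edgeR adjusted p = 6.45e-09) with means of 139 and 256 CPM, Adam17 was higher by 0.25, Furin fell by 0.40 and Adam10 was not called. Over all 67 partner genes, 52 were tested, with 15 higher, 23 lower and 14 not called (73.1% called beside 63.5% of all genes). At a log2 change of at least 1, where 7.99% of all genes were higher and 4.72% lower, 0 were higher and 5 lower (9.62%). These 5 were Nrp1, L1cam, Enah, Dapk1 and Tiam1. Without Dapk1, 4 were lower by that much.

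**Figure D4:**
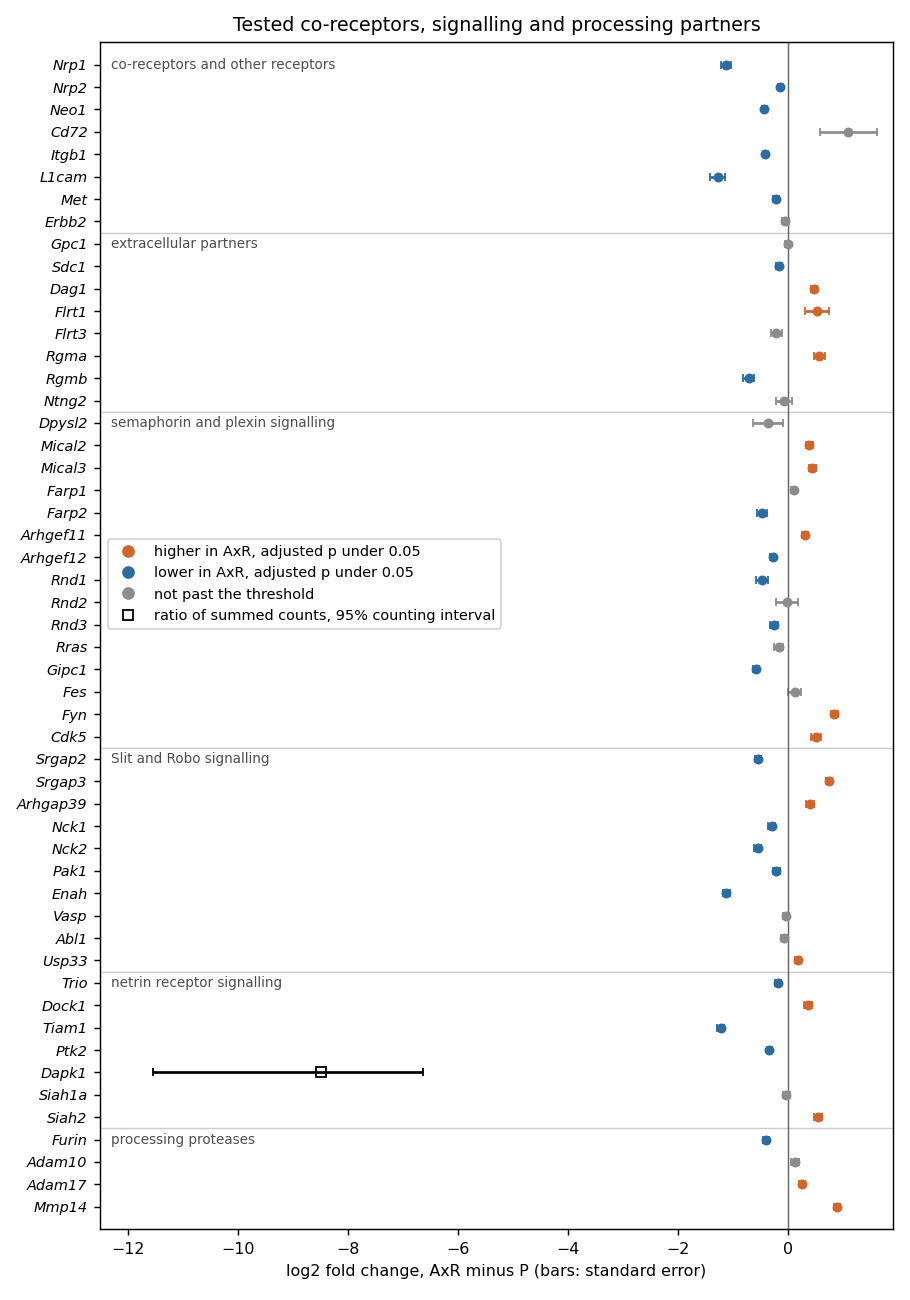
Log2 fold change of AxR over P for the tested partner genes by role, with bars of 1 standard error, and for Dapk1 the log2 of the count ratio with its 95% counting interval. Dapk1 stands apart at the left with 2 counts in AxR, and among the co-receptors and other receptors only Cd72, which was not called, lies to the right of 0.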

How the data were processed

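Per the study's methods and the submitters' processing notes, the authors sequenced stranded poly(A) libraries, checked reads with FastQC 0.11.5, aligned them to GRCm38 with STAR 2.6.0a and GENCODE M16, and deposited estimated counts per gene from RSEM 1.3.1, which divides ambiguous reads between genes by likelihood. All 6 libraries were used, 3 of P and 3 of AxR, grouped by their labels.

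Estimated counts were rounded to whole numbers, filtered with filterByExpr, scaled by upper quartile and fitted with the line as the only term in edgeR 4.0.16 (R 4.3.3, quasi-likelihood F test, robust dispersions). Benjamini-Hochberg adjustment ran over all 13550 genes tested. CPM use the library size after scaling, and CPM per kb divide by the merged exon length of GENCODE M21, in which 53274 of 53465 identifiers were found. Counting intervals are exact 95% intervals of the ratio of summed counts, and with the floor of 3 counts they cover counting error only. Library totals of 15495260 to 17294525 limit statements on genes at a few counts.

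Every member was accounted for, those with a mean of at least 1 CPM in the higher line by the value in every library, and all that passed the test were named. Partner genes were named where they are a receptor or co-receptor in a written pair or changed by at least 1 on the log2 scale; the other partner genes were picked as examples after their values were seen. The members, gene lists and pairs were chosen with earlier results of these data known. Alternatives were DESeq2 1.42.0, limma-voom (limma 3.58.1), other scalings, filters and thresholds, a replicate block and leaving out each library. The fitting code was tested on simulated data, where 78% of 1.5-fold, 88.1% of 2-fold and 99.7% of 4-fold changes were recovered. Of the simulated calls at an adjusted p under 0.05, 7.4% were false.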

Additional observations from a re-analysis of the deposited data

How the results depend on the processing

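Under other scalings, filters, tools and thresholds, 73 of the values for counts of guidance genes, partner genes and pairs stayed within 1.5 times the reported ones, and 7 moved. With a log2 change of at least 1 required, 2 guidance genes were higher, and 0 partner genes were higher and 5 lower, where edgeR called 15 partner genes higher and 23 lower without that limit. With at least 10 counts in every library, 8 guidance genes were lower, since fewer genes were then tested. Expressed pairs numbered 9 in P and 9 in AxR at 1 CPM per kb, and 8 in AxR at 5 CPM. Leaving out 1 library at a time gave 9 to 11 higher and 13 to 13 lower guidance genes, 14 to 16 higher and 21 to 24 lower partner genes, and 17 to 18 pairs in P and 17 to 17 in AxR.

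Among single genes, in 326 cases neither the direction nor the call changed, and 0 reversed. Robo1 lost its call without AxR replicate 2. Sema6c passed the threshold in 5 alternatives, with adjusted p from 0.0187 to 0.198 over all of them; the cause was not tested. Other scalings moved the median of all genes by at most 0.022 on the log2 scale.

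Same-numbered libraries of the lines did not deviate together (correlations -0.022 to -0.0061), so the numbers do not pair them. With a replicate block, edgeR called 8327 genes rather than 8608, and 10 guidance genes were higher and 13 lower, with 15 and 23 partner genes. Depth limits the genes with at most 3 counts in each AxR library, for which bounds or count ratios were given.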
